A study of Homo sapiens with 5 samples.

Results

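The genes described here encode the machinery that moves RNA and protein through the nuclear envelope: mRNA export factors, nucleoporins, importins and exportins. They were chosen by current gene symbol (THOC, ALYREF, NXF1, NXT, NUP, SEH1L, RANBP, KPNA, KPNB1, IPO, XPO and TNPO genes). For each gene, the probe with the highest mean over all arrays stood for it. In all, 56 of the 8127 genes named in the deposited table were members, represented by 69 probes, and 46 members had a single probe there. RefSeq lists 65 protein-coding genes whose symbols meet the rule, and the 9 others (KPNA5, KPNA7, NUP210L, NUP58, NXF1, RANBP17, RANBP9, THOC7 and XPO7) were not analysed here.

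On 5 Illumina expression BeadArrays, the series measured RNA of the HEK293T line, which derives from human embryonic kidney and carries the large T antigen. In 2 arrays the cells had received a biotin-labelled duplex of miR-182-5p, and the RNA came from its isolation on streptavidin beads (the miR-182 pull-down). In the 3 others the transfected molecule is labelled mock and the pull-down field reads none, although the protocols attached to all samples are alike: 200 pmol of duplex, harvest after 24 h, and streptavidin beads. The bead isolation and the microRNA therefore cannot be told apart in pull-down minus mock. The labels name no separate cultures behind the replicates, so a p-value here covers array-to-array spread alone, and that spread may be technical. Of 6 genes known from HEK293 lines, 4 had a probe in the deposited table. Among them VIM was at 13.40 ± 0.51 in the pull-down and 13.52 ± 0.11 in the mock (deposited log2 values, SD, n = 2 and n = 3), while NEFL and NEFM were below 9 in both groups and UCHL1 was at 10.01 ± 0.09 in the pull-down and 12.26 ± 0.09 in the mock. Of 10 markers of blood, liver, fibroblast and endothelial cells only COL1A1 had a probe in the deposited table, and it lay close to the lower limit of the values in both groups. Values are relative within an array, and in such bulk RNA fewer cells of a type and less RNA per cell cannot be told apart.

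Export of an mRNA begins when the THO complex, with an RNA helicase and the adaptor ALYREF, loads onto the transcript. The adaptor hands the mRNA to the receptor NXF1, which works with its small partner NXT1 and carries it through the pore. The pore is built of nucleoporins in stacked rings: a Y-shaped coat complex on both faces, an inner ring, a channel lined with FG repeats, filaments on the cytoplasmic face and a basket on the nuclear face. Importins and exportins cross the same channel with protein and small RNA cargo, and the GTPase RAN sets their direction. One of them, XPO5, exports the hairpin precursors of microRNAs.

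The bait is shown because the pull-down is defined by it. A microRNA in Argonaute recognises transcripts mainly through its seed, bases 2 to 8 from the 5′ end, given here in capitals. The sequence is RefSeq's, at chr7:129770447-129770470 on the minus strand of GRCh38.p14, and a site that pairs fully with the seed reads UUGCCAA in the transcript.
hsa-miR-182-5p: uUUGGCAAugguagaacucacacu
Target sites in the transcripts of the members were not searched for here.

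Each difference is the pull-down mean minus the mock mean of the deposited log2 values, and a gene was called at a Benjamini-Hochberg adjusted p under 0.05 over all 8127 genes (limma). Of the 56 members, 16 were higher in the pull-down and 8 lower, and 32 did not pass. Over all genes, 20.2% were called higher and 15.0% lower, against 28.6% and 14.3% of the members. The median difference of the members was 0.11, beside 0.02 over all genes. The differences of members ran from -1.19 for ALYREF to 2.25 for THOC3. Calls of at least 2-fold were 6 higher and 1 lower among the members, beside 5.28% and 5.12% of all genes. The pull-down arrays lay wholly above the mock arrays for 23 members and wholly below them for 12, which compares with 35.0% and 30.1% of all genes. The members were gathered with the result for THOC3 already known, so these counts describe the genes and support nothing beyond that. Among the 24 called members, 9 kept the call with any single array left out: THOC3, THOC6, SEH1L, NUP50, NUP62CL, TNPO3, IPO11, XPO6 and RANBP1. How many of all called genes kept their calls in this way was not counted, so no share over all genes stands beside it. Without mock array 2 the members had 10 higher calls, where all genes had 989. Their lower calls numbered 2 without pull-down array 1, 4 without mock array 1, 3 without mock array 2 and 4 without mock array 3, where all genes had 638, 812, 819 and 1205.

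**Figure D1:**
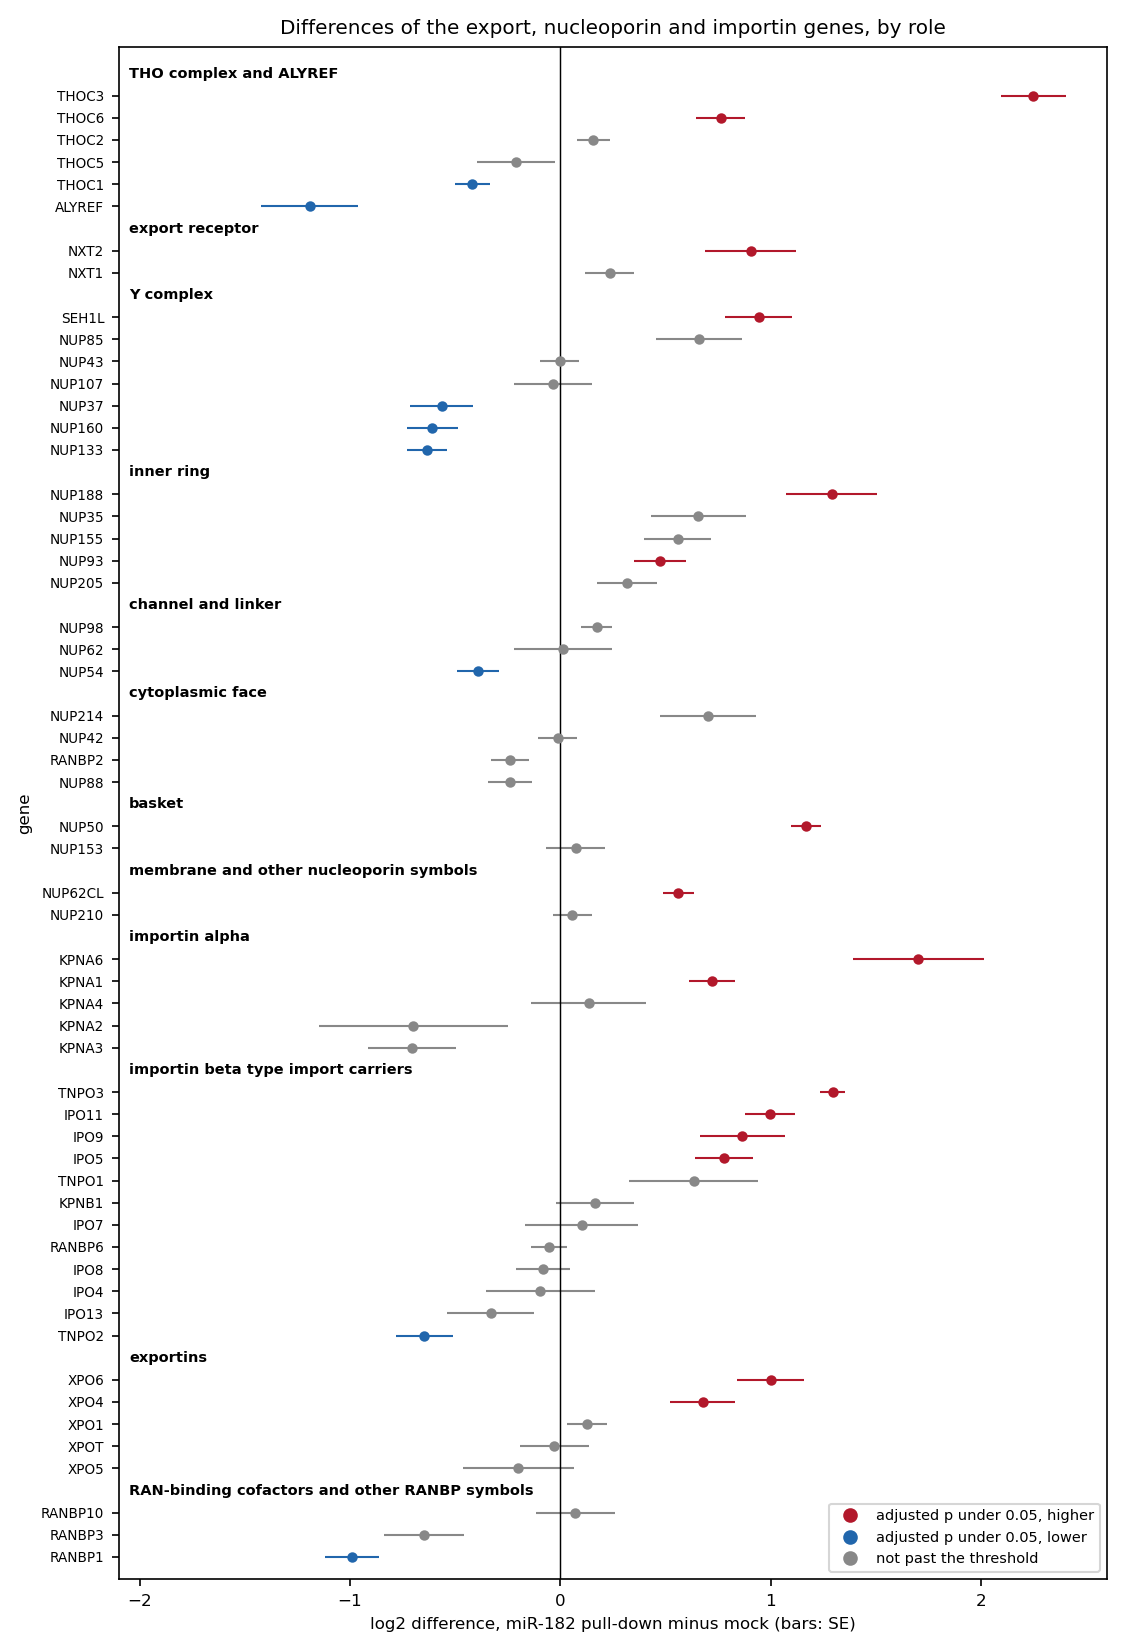
Log2 difference (pull-down minus mock) of each of the 56 members with its standard error from limma, ordered by role and by difference within a role. Most roles hold genes on both sides of 0, with THOC3 at 2.25 and ALYREF at -1.19 as the ends of the range in the same role. All 5 inner ring genes lie above 0. So do the genes of 3 roles with 2 genes each: export receptor, basket, and membrane and other nucleoporin symbols.

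The export factors at the start of the pathway were split. THOC3, a WD-repeat subunit of the THO complex, had log2 values of 11.62 and 11.96 in the pull-down arrays, against 9.71, 9.37 and 9.54 in the mock arrays. Both pull-down arrays stood far above all mock arrays, at 11.79 ± 0.24 against 9.54 ± 0.17, which is 4.76-fold (difference 2.25, SE 0.15). THOC3 is among the largest positive differences on these arrays, and it was the reason for describing this family, so no p is given for it. THOC6, another WD-repeat subunit, had 9.48 and 9.18 in the pull-down and 8.50, 8.67 and 8.53 in the mock, again without overlap (difference 0.76, SE 0.12, limma's Benjamini-Hochberg adjusted p = 0.0115). ALYREF, the adaptor that passes the mRNA on, was lower, with 8.56 and 9.22 in the pull-down and 9.89, 10.21 and 10.16 in the mock. The groups did not overlap, but the pull-down arrays differed from each other by more than the mock arrays did (difference -1.19, SE 0.23, limma's adjusted p = 0.0202).

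THOC1, the THO subunit also known as HPR1, was lower by a smaller amount, at 8.83 ± 0.11 in the pull-down and 9.25 ± 0.08 in the mock (difference -0.42, SE 0.08). THOC2, the scaffold of the complex, lay within 0.1 of the lowest value in all 3 mock arrays, at 8.05 ± 0.01, and its difference of 0.16 (SE 0.08) may be compressed by that limit. THOC5 did not pass at -0.21 (SE 0.19), and its second probe gave 0.21. The call of ALYREF ended without mock array 2 (limma's Benjamini-Hochberg adjusted p = 0.0698) and without mock array 3 (0.0513). The call of THOC1 ended without pull-down array 1 (difference -0.34, limma's adjusted p = 0.0938), mock array 2 (0.0654) or mock array 3 (0.0528). Under a trended variance prior, limma's adjusted p for THOC1 was 0.0849, and it was 0.0781 among genes with a mean of at least 9.

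Of the export receptor only its small subunits were measured. NXT2, a paralog of NXT1, had 9.75 and 9.05 in the pull-down and 8.48, 8.49 and 8.50 in the mock. The mock arrays were nearly equal and the pull-down arrays far apart from each other, both above the mock (difference 0.90, SE 0.22, limma's Benjamini-Hochberg adjusted p = 0.0348). The call ended without mock array 1 (limma's adjusted p = 0.0993), mock array 2 (0.0994) or mock array 3 (0.0758), and without pull-down array 1 the difference was 0.55 (0.0272). NXT1 overlapped between groups, at 10.27 ± 0.08 and 10.03 ± 0.17, and did not pass (difference 0.23, SE 0.12).

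**Figure D2:**
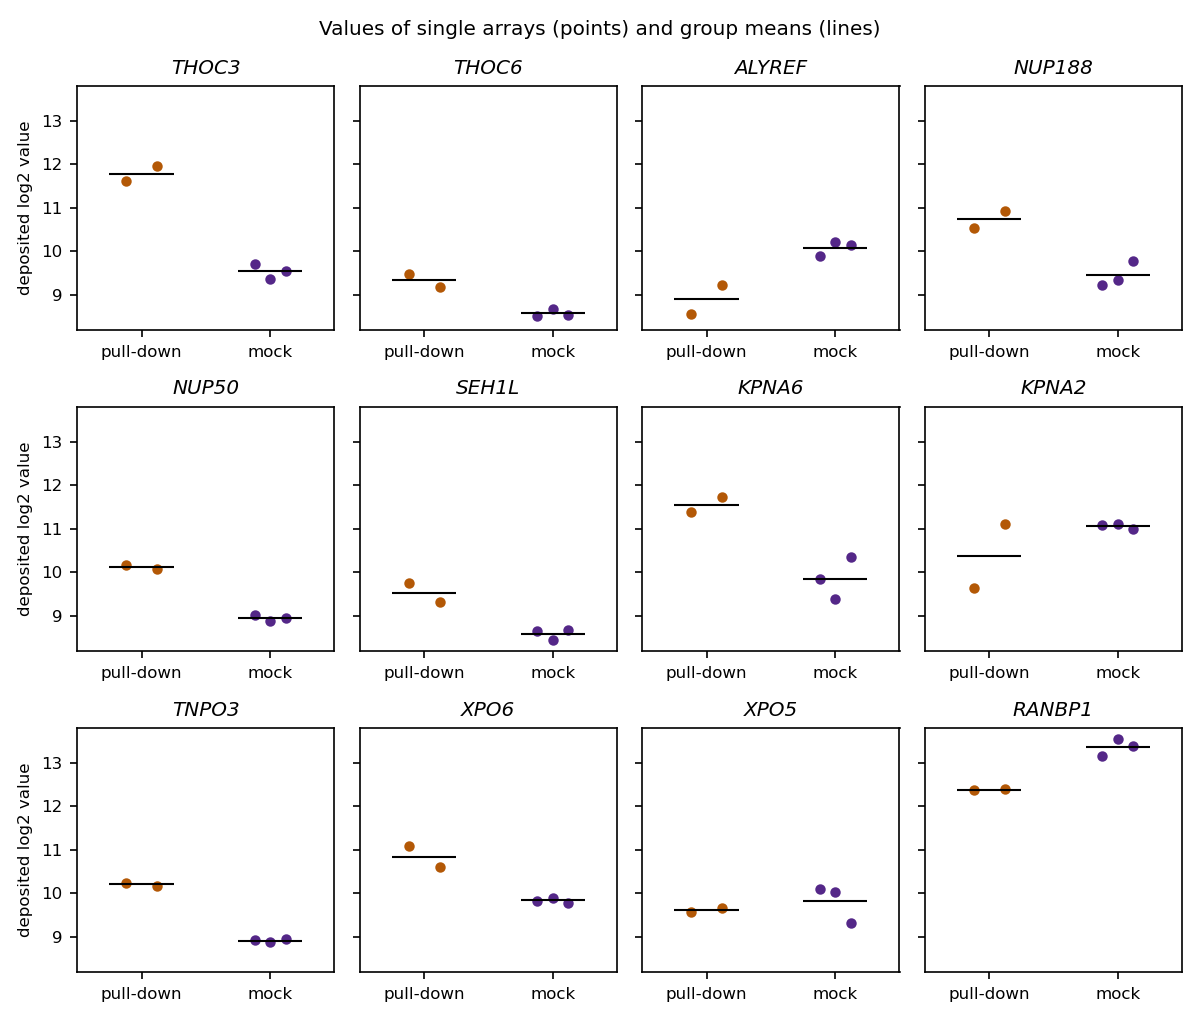
Deposited log2 values of single arrays (points) and group means (lines) for 12 members, with the pull-down left of the mock in each panel. THOC3, NUP50, TNPO3, KPNA6 and XPO6 have both pull-down arrays above all mock arrays and RANBP1 has both below them. For KPNA2, pull-down array 1 stands apart at 9.63, and pull-down array 2, at 11.11, is level with the highest mock array.

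In the Y complex, the coat that frames both faces of the pore, the median difference was -0.04. Beside 20.2% and 15.0% of all genes, 1 of 7 measured genes was higher and 3 were lower. SEH1L, a propeller subunit that the Y complex shares with a lysosomal signalling complex, was the higher one. It had 9.74 and 9.31 in the pull-down and 8.65, 8.43 and 8.66 in the mock, without overlap (difference 0.94, SE 0.16, limma's Benjamini-Hochberg adjusted p = 0.0147). NUP133, at the stem of the Y, was lower, with 10.01 and 10.15 in the pull-down and 10.73, 10.59 and 10.81 in the mock. Both pull-down arrays were below every mock array (difference -0.63, SE 0.09, limma's adjusted p = 0.0110). NUP160 (-0.61, SE 0.12) and NUP37 (-0.56, SE 0.15), which lie together in a short arm of the Y, were called lower as well. NUP85 had a difference of 0.66 (SE 0.20) with both pull-down arrays above the mock and did not pass (limma's adjusted p = 0.0663). NUP107 and NUP43 overlapped between groups, with differences of -0.04 and about 0.

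Each of the lower calls in the Y complex ended when some single array was left out. NUP133 lost its call without pull-down array 1 (limma's Benjamini-Hochberg adjusted p = 0.0570). NUP160 lost it without pull-down array 1 (difference -0.45, limma's adjusted p = 0.0721), mock array 1 (0.0655), mock array 2 (0.0596) or mock array 3 (0.0511). NUP37 moved to -0.34 without pull-down array 1 (limma's adjusted p = 0.0833) and also lost its call without mock array 1 (0.124), mock array 2 (0.109) or mock array 3 (0.0868), and after quantile normalization (0.0756).

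All 5 inner ring genes had both pull-down arrays above the mock arrays, beside 35.0% of all genes. Of the 5, 2 were called higher, beside 20.2% of all genes. The median difference of the 5 was 0.56. NUP188, a large scaffold protein, had 10.55 and 10.93 in the pull-down, against 9.23, 9.33 and 9.78 in the mock. That is 10.74 ± 0.27 against 9.45 ± 0.29, or 2.45-fold (limma's Benjamini-Hochberg adjusted p = 0.0141). NUP93, which anchors the ring, was called at a smaller difference of 0.47 (SE 0.12, limma's adjusted p = 0.0421). NUP35 (0.66, SE 0.23), NUP155 (0.56, SE 0.16) and NUP205 (0.32, SE 0.14) did not pass, with limma's adjusted p of 0.0870, 0.0534 and 0.155. Each of these 3 genes passed without pull-down array 1, with differences of 0.99, 0.79 and 0.52 and limma's adjusted p of 0.0358, 0.0297 and 0.0460. With pull-down array 2 left out instead, their differences were 0.32, 0.33 and 0.11 (limma's adjusted p of 0.223, 0.116 and 0.470). NUP188 lost its call without pull-down array 2 (limma's adjusted p = 0.0672) or mock array 2 (0.0536). For NUP93 the call ended when leaving out the first (0.122) or second (0.168) pull-down array or the first (0.0520) or second (0.0970) mock array, after median centring (0.0552) and under a trended prior (0.0565).

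In the channel, NUP54, an FG-repeat protein of the central complex, was lower. It had 9.77 and 9.81 in the pull-down and 10.34, 10.10 and 10.09 in the mock, without overlap (difference -0.39, SE 0.10, limma's Benjamini-Hochberg adjusted p = 0.0415). Its second probe gave -0.49, but the call ended with any of the 5 arrays left out. Limma's adjusted p was then 0.156 and 0.130 on leaving out pull-down array 1 or 2, and 0.0505, 0.0815 and 0.0559 on leaving out mock array 1, 2 or 3. It also ended after quantile normalization (limma's adjusted p = 0.0508), under a trended prior (0.104) and among genes with a mean of at least 9 (0.1002). NUP62, its partner in the channel, did not pass and overlapped fully, at 11.76 ± 0.20 in the pull-down and 11.75 ± 0.35 in the mock. NUP98 was at 8.11 ± 0.04 in the mock, within 0.1 of the lowest value in 2 of the 3 arrays, so its difference of 0.17 (SE 0.07) may be compressed.

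None of the 4 genes of the cytoplasmic face passed, where 20.2% of all genes were called higher and 15.0% lower. NUP214, which docks export complexes there, had 9.47 ± 0.20 in the pull-down and 8.77 ± 0.34 in the mock, without overlap (difference 0.70, SE 0.23, limma's Benjamini-Hochberg adjusted p = 0.0760), and passed only without mock array 3 (difference 0.88, limma's adjusted p = 0.0335) among the left-out arrays. NUP214 also passed under a trended prior (limma's adjusted p = 0.0345) and among genes with a mean of at least 9 (0.00742). RANBP2, the main protein of the filaments, was at 8.03 ± 0.01 in the pull-down and 8.27 ± 0.12 in the mock, and the pull-down value is near the lower limit. It has near-identical copies in the RGPD genes that its probe could share, so its value is uncertain. NUP88 (-0.24, SE 0.11) and NUP42 (-0.01, SE 0.09) were the other members.

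On the nuclear face, the basket protein NUP50 was one of the clearest differences among the members. NUP50, which binds importin alpha and helps release its cargo, had 10.17 and 10.08 in the pull-down and 9.02, 8.89 and 8.95 in the mock. Arrays within each group differed little beside the gap between groups (2.25-fold, difference 1.17, SE 0.07, limma's Benjamini-Hochberg adjusted p = 0.00297). RefSeq names 4 pseudogenes of NUP50, and whether its probe also reads them was not tested. NUP153, the other basket gene, overlapped between groups (0.07, SE 0.14). NUP62CL, a gene similar to the C-terminal part of NUP62, was called higher with 9.71 and 9.81 in the pull-down and 9.18, 9.14 and 9.27 in the mock (difference 0.56, SE 0.07, limma's adjusted p = 0.00829). The membrane nucleoporin NUP210 did not pass (0.06, SE 0.09).

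Among the importin alpha genes, whose products bind the classical nuclear localization signal, 2 of 5 were higher and none was lower. The shares over all genes were 20.2% and 15.0%. KPNA6 had 11.39 and 11.73 in the pull-down, against 9.84, 9.38 and 10.34 in the mock. The mock arrays spread over almost 1 log2 unit, yet both pull-down arrays were above them all (3.26-fold, difference 1.70, SE 0.31, limma's Benjamini-Hochberg adjusted p = 0.0172). KPNA1 was higher by 0.72 (SE 0.11, limma's adjusted p = 0.0110). KPNA3 had a difference of -0.71 (SE 0.21) without overlap and did not pass (limma's adjusted p = 0.0592). KPNA4 overlapped between groups (0.13, SE 0.27).

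KPNA2, singled out after its values were seen, had 9.63 and 11.11 in the pull-down and 11.09, 11.11 and 11.01 in the mock. Its pull-down arrays disagreed by more than the arrays of any other member, and only the first stood apart from the mock. The difference was -0.70 (SE 0.45) on all arrays, 0.04 without pull-down array 1 and -1.44 without pull-down array 2, where it passed (limma's Benjamini-Hochberg adjusted p = 0.0183). KPNA2 also passed when limma was fitted to genes with a mean of at least 9 (0.0254). KPNA6 kept differences of 1.47 to 1.95 with 1 array left out but lost its call without pull-down array 1 (limma's adjusted p = 0.0647), pull-down array 2 (0.0869) or mock array 1 (0.0605). KPNA1 lost its call without pull-down array 1 (limma's adjusted p = 0.0612). KPNA3 passed without mock array 2 (limma's adjusted p = 0.0358), after median centring (0.0282), under a trended prior (0.0305) and among genes with a mean of at least 9 (0.00635).

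Of 12 import carriers of the importin beta type, 4 were higher and 1 was lower, beside 20.2% and 15.0% of all genes. TNPO3, which imports SR-rich splicing factors, had 10.24 and 10.18 in the pull-down and 8.92, 8.87 and 8.94 in the mock. The spread within either group was small beside the gap (2.46-fold, difference 1.30, SE 0.06, limma's Benjamini-Hochberg adjusted p = 0.00276). TNPO2, a close relative of TNPO1 that imports RNA-binding proteins, went the other way with 10.30 and 10.58 in the pull-down and 11.24, 11.09 and 10.94 in the mock. Every pull-down array was below every mock array (difference -0.65, SE 0.13, limma's adjusted p = 0.0241). IPO11, a carrier of ubiquitin-conjugating enzymes, was higher by 1.00 (SE 0.12), just under 2-fold. IPO9, a carrier of histones, was higher by 0.87 (SE 0.20), and IPO5, a carrier of ribosomal proteins, by 0.78 (SE 0.14).

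KPNB1, the carrier that pairs with importin alpha, overlapped between groups, at 13.23 ± 0.02 in the pull-down and 13.07 ± 0.30 in the mock. TNPO1 was at 0.63 (SE 0.31), and its pull-down arrays of 11.02 and 10.09 lay above and among the mock arrays. Its further probes gave 0.81 and, at the lower limit, -0.08. IPO8, a carrier linked to Argonaute proteins, had 8.23 and 8.22 in the pull-down and 8.53, 8.18 and 8.21 in the mock, so both groups were dim and overlapped (difference -0.08, SE 0.13). The differences of IPO4, IPO7, IPO13 and RANBP6, which did not pass either, lay between -0.33 and 0.10. RefSeq holds pseudogenes named after 14 of the 56 members, TNPO3, IPO5, TNPO1 and KPNB1 among them, and cross-reading by their probes was not tested. Pseudogenes and copies under other names were not counted, for these or the other members.

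Several of these carrier calls depended on single arrays. For IPO9, limma's Benjamini-Hochberg adjusted p was 0.121 and 0.133 on leaving out pull-down array 1 or 2, and 0.0944 and 0.0869 on leaving out mock array 1 or 2. IPO5 lost it without mock array 1 (limma's adjusted p = 0.0513) or mock array 2 (0.0584). TNPO2 lost it without pull-down array 1 (limma's adjusted p = 0.101), mock array 1 (0.0643) or mock array 2 (0.0771). TNPO1 passed without pull-down array 2 at a difference of 1.10 (limma's adjusted p = 0.0340) but was at 0.17 without pull-down array 1 (0.565). KPNB1 passed without mock array 1 at 0.34 (limma's adjusted p = 0.0436) but was at 0.075 without mock array 2 (0.831) and 0.085 without mock array 3 (0.789).

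Of 5 exportins, 2 were higher and none was lower, beside 20.2% and 15.0% of all genes. XPO6, which exports actin with profilin, had 11.08 and 10.60 in the pull-down and 9.83, 9.90 and 9.78 in the mock. Both pull-down arrays were above the narrow range of the mock (difference 1.00, SE 0.16, limma's Benjamini-Hochberg adjusted p = 0.0123). XPO4, an exporter of the translation factor eIF5A, was higher by 0.68 (SE 0.16, limma's adjusted p = 0.0310), and its second probe gave 0.61. XPO4 lost its call without pull-down array 1 (limma's adjusted p = 0.138), pull-down array 2 (0.0692) or mock array 2 (0.0832). XPO1, the main exporter of proteins with leucine-rich signals, overlapped between groups at 11.79 ± 0.09 and 11.66 ± 0.12 (difference 0.13, SE 0.10). The tRNA exporter XPOT did not pass (-0.03, SE 0.16).

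XPO5, which carries microRNA precursors out of the nucleus, had 9.57 and 9.67 in the pull-down and 10.10, 10.03 and 9.32 in the mock. Mock array 3 was below the pull-down arrays and the other mock arrays above them (difference -0.20, SE 0.26, limma's Benjamini-Hochberg adjusted p = 0.611). Without mock array 3 its difference was -0.45 and passed (limma's adjusted p = 0.0276), while it was -0.059 without mock array 1 (0.897) and -0.092 without mock array 2 (0.858).

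Among the RAN-binding cofactors, RANBP1 was lower. RANBP1, which helps RAN hydrolyse its GTP in the cytoplasm, had 12.37 and 12.39 in the pull-down, against 13.17, 13.55 and 13.40 in the mock. The pull-down arrays were nearly equal and below the whole mock range (difference -0.99, SE 0.13, limma's Benjamini-Hochberg adjusted p = 0.00783). Its second probe gave -0.17, at 11.95 ± 0.23 in the pull-down and 12.12 ± 0.20 in the mock, and with the mean of both probes the difference was -0.58 (limma's adjusted p = 0.0171). RANBP3, a cofactor of XPO1, had a difference of -0.65 (SE 0.19, limma's adjusted p = 0.0573), while its further probes gave -0.06 and 0.17. It passed after median centring (limma's adjusted p = 0.0399), under a trended prior (0.0345) and among genes with a mean of at least 9 (0.0105). RANBP10, which shares the name but is known as part of a ubiquitin ligase complex, did not pass (0.07, SE 0.19).

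**Figure D3:**
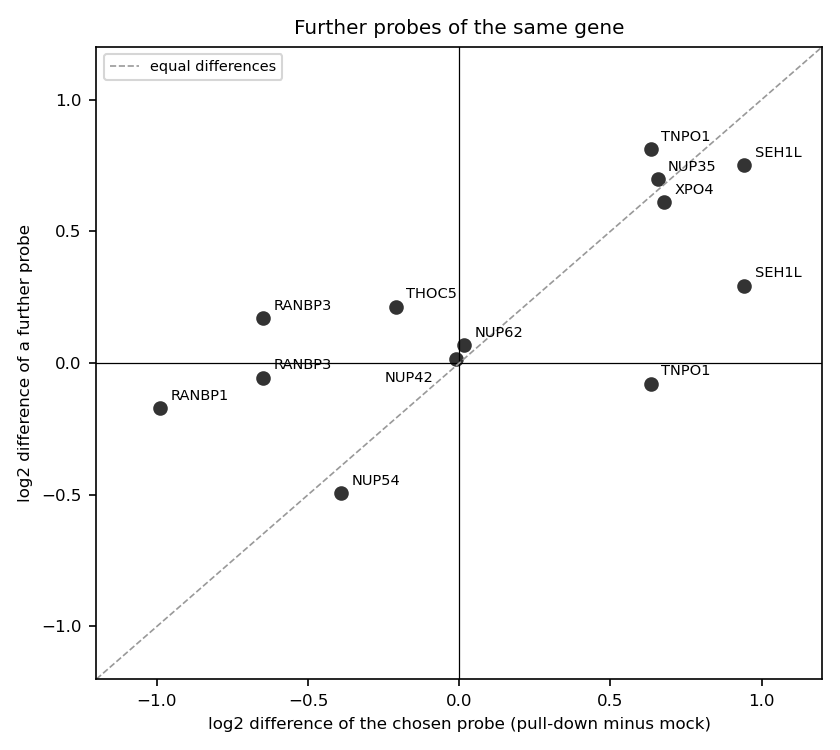
Log2 difference (pull-down minus mock) of the chosen probe against that of each further probe of the same gene, for the 10 members with several probes. Of 13 further probes, 9 share the sign of the chosen probe, those of SEH1L, XPO4, NUP35 and NUP54 among them, and RANBP1 lies well off the dashed line of equal differences.

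Further probes exist for 10 members and are the 1 other readout of these transcripts, on the same arrays. Of 13 further probes, 9 had the sign of the chosen probe and 4 the opposite one. SEH1L had 0.75 and 0.29 at its further probes beside 0.94 at the chosen one. NUP35 had 0.70 beside 0.66. The opposite signs belonged to THOC5, NUP42, 1 probe of RANBP3 and 1 of TNPO1. Most of the large differences, THOC3, KPNA6, NUP188, TNPO3, NUP50, XPO6 and ALYREF included, have a single probe and no such second reading.

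Calls were also counted by signal level, since differences may be compressed near the lower limit of the values. The median over members of the mean log2 value of the 5 arrays was 9.62, against 8.90 for all genes. Calls among the 41 members with a mean of 9 or more were 13 higher and 8 lower. The 15 dimmer members had 3 higher calls and no lower one. Over all genes the same split gave 823 higher and 953 lower of 3831 bright genes, and 817 higher and 262 lower of 4296 dim ones. The members THOC2, NUP43, NUP98, RANBP2 and IPO7 lay within 0.1 of the lowest value of at least 1 array. Members called higher had a median level of 9.55 and members called lower one of 10.29, and over all genes these medians were 9.01 and 9.75.

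**Figure D4:**
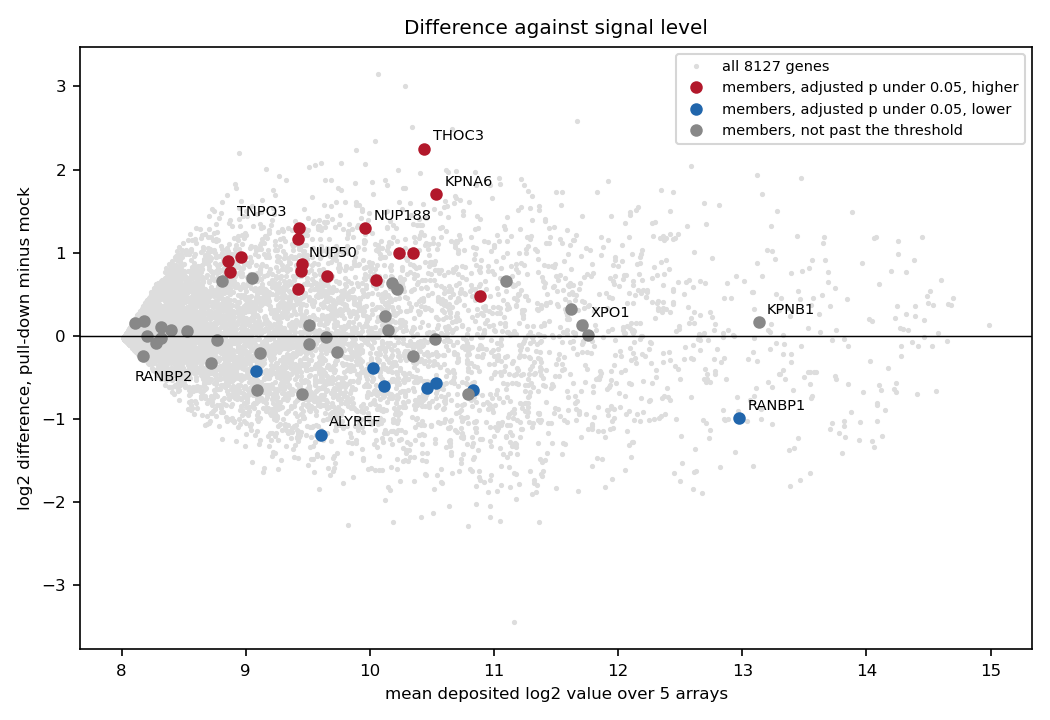
Log2 difference (pull-down minus mock) against the mean deposited log2 value over 5 arrays, for all 8127 genes (light points) and the 56 members (coloured by call). Differences narrow toward the lower limit near 8, where RANBP2 lies, and the members spread over the same cloud as the other genes, THOC3 near its upper edge.

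A further list held 39 partners of the same pathway whose symbols fall outside the rule, and 31 of them were measured. Of these, 6 were higher (19.4%, beside 20.2% of all genes) and 8 lower (25.8%, beside 15.0%), and their median difference was 0.07. The partners were bright, at a median level of 9.87 against 8.90 for all genes, and every lower call had a mean above 9. Among the 3831 genes with a mean of at least 9, 823 were called higher and 953 lower. The lower calls included genes that prepare the mRNA for export. DDX39A, a helicase that works with ALYREF, had 9.94 and 10.29 in the pull-down and 11.58, 11.92 and 11.54 in the mock, far apart (difference -1.57, SE 0.17, limma's Benjamini-Hochberg adjusted p = 0.00578). Its paralog DDX39B did not pass, with a difference of 0.59 (SE 0.23). The cap-binding subunits NCBP1 (-0.70, SE 0.12) and NCBP2 (-0.57, SE 0.13) and the export factor SARNP (-0.71, SE 0.12) were lower. Of the TREX-2 complex, which links transcription to the pore, PCID2 (-1.24, SE 0.15) and ENY2 (-0.81, SE 0.09) were lower while SEM1 (0.56, SE 0.09) and CETN2 (0.59, SE 0.13) were higher.

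At the pore and in the RAN cycle, GLE1 (0.80, SE 0.11) and DDX19B (1.02, SE 0.23), which strip export factors from the mRNA on the cytoplasmic face, were both higher. The membrane nucleoporin NDC1 (0.45, SE 0.11) and the RCC1-related gene RCC2 (0.62, SE 0.16) were higher too. NUTF2, which returns RAN to the nucleus, was lower at 8.74 ± 0.11 in the pull-down and 9.86 ± 0.14 in the mock (difference -1.13, SE 0.11, limma's Benjamini-Hochberg adjusted p = 0.00492). HIKESHI, an import carrier of heat shock proteins, was lower by a similar amount (-1.04, SE 0.07). RAN itself (0.07, SE 0.18), RANGAP1 (-0.52, SE 0.41) and CSE1L, the exporter of importin alpha (0.21, SE 0.12), did not pass.

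Among the partners, DDX39A, PCID2, ENY2, NUTF2, HIKESHI and GLE1 kept their calls with any 1 array left out. Without pull-down array 1, limma's Benjamini-Hochberg adjusted p was 0.0657 for NCBP1, 0.130 for NCBP2, 0.0590 for SEM1, 0.120 for CETN2, 0.0992 for NDC1 and 0.168 for RCC2. Without pull-down array 2, limma's adjusted p was 0.117 for NCBP2, 0.0549 for SARNP, 0.0589 for CETN2, 0.146 for NDC1 and 0.137 for RCC2. Without mock array 1 it was 0.0808 for NCBP2, 0.0621 for CETN2, 0.0815 for DDX19B and 0.112 for RCC2 (limma). Without mock array 2 it was 0.0523 for NCBP1, 0.0513 for SARNP, 0.0619 for CETN2, 0.0854 for DDX19B and 0.0716 for NDC1 (limma). Without mock array 3 it was 0.0752 for NCBP2, 0.0699 for DDX19B and 0.0776 for NDC1 (limma). With the mean of all probes of a gene, the difference of NCBP2 was -0.20 (limma's adjusted p = 0.0682) and that of DDX19B 0.72 (0.0792). On the same scale HIKESHI was at -0.68 (limma's adjusted p = 0.00336) and SEM1 at 0.34 (0.0440), smaller but still called. Without pull-down array 2, DDX19B was at 0.66 (limma's adjusted p = 0.0303). NDC1 lost its call under a trended prior (limma's adjusted p = 0.0819) and among genes with a mean of at least 9 (0.0608), and RCC2 after quantile normalization (0.0555). The list had 3 higher calls on leaving out any 1 of pull-down array 2 and mock arrays 1 and 2.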

How the data were processed

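The authors deposited 1 table of log2 values, 11184 probes by 5 arrays. Base 2 was inferred from their range of about 8 to 15.2. Lumi 2.2.1 is listed without a role, per the submitters' processing notes, and for background correction, normalization, centring and probe filtering the method is not given in the sources used here. A table of unnormalized signals was not used, since its 10 value columns carry no sample's name, so no background correction or slide block could be tried. That table has 39408 rows, so the deposited log2 table holds only part of the array's probes. Shares over all genes refer to that part. Probes were named by the platform annotation and Entrez identifier: 10040 had 1 symbol, 1 several and 1143 none. No filter was applied. Each of 8127 genes was fitted in R 4.3.3 with limma 3.58.1 (functions lmFit and eBayes, group only, 2-sided), with Benjamini-Hochberg adjustment over all genes and 3 residual degrees of freedom. An exact permutation test of 2 arrays against 3 could not fall below p = 0.1. The fit was tested on data simulated at limma's moderated spread and at the raw residual spread, where it recovered fewer of the larger changes. The moderated spread was adopted after a first test at the raw spread had missed its target. Arrays' number limits the precision. Members, lists and tests were chosen with earlier results of these data known. Every member may be named; values of single arrays are given for THOC3, members called at 2-fold or more, XPO5, IPO8 and the largest call of each role in each direction. Those of THOC6, KPNA2, TNPO1 and the partner DDX39A were added after their values were seen.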

Additional observations from a re-analysis of the deposited data

How the results depend on the processing

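With 13 alternatives, none of the 24 called members changed sign, but many of these alternatives could not change it. All 24 have groups that do not overlap, so leaving out or reweighting arrays keeps the sign. A trended prior or a filter on level leaves the difference itself unchanged. Across other scalings 3 called members lost their calls. The replicate numbers were not taken as pairs: arrays with the same number had correlations of deviations of 0.036 and 0.115 over genes, in 2 pairs. Deviations were taken from the group mean, so those of the 2 pull-down arrays are equal with opposite sign. The 2 correlations are therefore not separate checks of pairing. With the replicate number as a block the members had 13 higher and 6 lower calls, and 7 called members did not pass (THOC6, NXT2, NUP37, NUP160, NUP54, IPO5 and TNPO2), while KPNA3 (-0.55, limma's adjusted p = 0.0393) and RANBP3 (-0.74, 0.0273) did. Among partners, RANGAP1 passed with the block (-0.87, limma's adjusted p = 0.0220), and NCBP2, CETN2, DDX19B, NDC1 and RCC2 did not. Mock array 3 has no pull-down array of the same number, so it adds nothing to the block difference. Each block difference therefore equals the difference without mock array 3. The adjusted p-values are not equal, because the block also changes the residual spread and its degrees of freedom. Limma's adjusted p was lower with the block for KPNA3 (0.0393 against 0.0728 without mock array 3) and RANBP3 (0.0273 against 0.0671). It was higher with the block for THOC6 (0.0526 against 0.0317) and IPO5 (0.0548 against 0.0401). Whether pairing accounts for these changes was not tested. With 1 array left out, higher calls numbered 10 to 16 and lower calls 2 to 8 among members, 958 to 1379 and 638 to 1205 among all genes, and 3 to 5 higher among partners, and the members' median ran from 0.067 to 0.17. Partners had 2 higher calls with the replicate block, and 954 genes were higher among those with a mean of at least 9, where fewer genes were tested. Of 32 uncalled members, 11 passed in some fit to all arrays (THOC2, NUP85, NUP35, NUP155, NUP98, NUP214, RANBP2, KPNA2, KPNA3, TNPO1 and RANBP3), and 15 changed sign in some setting, all but KPNA2 with small differences, and the cause was not tested. By setting, these were THOC5 (0.0015) and NUP42 (0.0014) with the mean of all probes; NUP43 (0.014) and NUP42 (0.0066) at the 75th percentile; NUP107 (0.0082), NUP210 (-0.037) and RANBP10 (-0.022) after quantile normalization; NUP62 after median centring (-0.026); NUP43 (0.0025) and NUP62 (-0.039) with array weights. With the replicate block they were NUP43 (0.023), NUP62 (-0.18), NUP42 (0.0043), KPNA4 (-0.039), IPO7 (-0.016) and IPO4 (0.080), and the partner RAN changed sign too (-0.045). Left-out ranges were -0.11 to 0.10 for NUP43, -0.15 to 0.12 for NUP107, -0.18 to 0.15 for NUP62, -0.11 to 0.088 for NUP42, -0.051 to 0.20 for NUP153, -0.035 to 0.15 for NUP210, -0.18 to 0.45 for KPNA4, -1.44 to 0.042 for KPNA2, -0.072 to 0.33 for IPO7, -0.13 to 0.026 for RANBP6, -0.15 to 0.029 for IPO8, -0.38 to 0.19 for IPO4, -0.17 to 0.11 for XPOT, -0.034 to 0.24 for RANBP10 and -0.057 to 0.21 for RAN. The lower limit near 8 may compress differences of dim probes. Background correction and a slide block were not run.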
